A study of Mus musculus with 16 samples.

Results

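The genes described here are 10 genes of the choroid plexus epithelium, taken by their symbols from a list of 40481 genes counted in mouse brain. They were Ttr, Kl, Clic6, Prlr, Sostdc1, Folr1, Aqp1, Enpp2, Slc4a5 and Otx2, and all 10 were listed. RNA was sequenced from the brains of 16 male C57BL/6J mice (C57BL in the labels) bought at 18 months of age, 8 given Adropin(34-76) and 8 given the diluent, and each brain gave 1 library. The peptide, the putative secreted domain of adropin, was injected ip. once a day at 90 nmol/kg/d in 0.9% saline with 0.1% BSA, and the saline controls received that diluent alone. Handling was the same in both groups: 2 weeks of acclimation, injections that began 2 weeks before behavioural tests and continued through them, and a 6 h fast before the brain was snap frozen. The labels and methods do not say which part of the brain was taken, and no transgene or line is involved. Each mouse is called here by the 2 numbers of its label, which the sources do not explain.

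The choroid plexus is a vascular tissue folded into the ventricles, whose single layer of epithelial cells secretes cerebrospinal fluid and forms the barrier between blood and that fluid. Its epithelium makes large amounts of transthyretin, carries ion and water transporters on its ventricular face, and takes up folate, hormones and other solutes from blood. Genes largely limited to it can serve as a measure of how much of it a brain sample holds. In bulk tissue, fewer cells of a type and less RNA per cell cannot be told apart.

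The comparison asks whether these genes differed between the groups, and how far the difference rested on saline mouse 8_3. Levels are counts per 1000000 reads (CPM) after TMM normalization, which scales libraries by the trimmed mean of their log ratios, and total counts per mouse ran from 35026503 to 70314050. The filter on low counts asked for more than 1 CPM in 7 or more mice, which 14949 genes and 6 of the 10 passed. Folr1, Aqp1, Slc4a5 and Otx2 did not, and their tests come from a fit over all 30210 genes with a count. The cut-off is a fold change above 1.5 with an unadjusted p below 0.05 in edgeR's quasi-likelihood test. An exact two-sided permutation test of log2 CPM between groups, which gives a few very large counts less weight, is set beside it.

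All 10 genes were highest in saline mouse 8_3. The next highest of the 16 mice was saline mouse 5_4 for 7 of the 10 genes, and 5_4 took rank 3 for Kl, rank 4 for Otx2 and rank 6 for Enpp2. In the adropin group, mouse 4_3 was highest for 6 of the 10 genes and mouse 2_4 for 3. With all mice, 5 of the 6 genes tested (Ttr, Kl, Clic6, Prlr and Sostdc1) were lower in adropin-treated mice past the cut-off, where 0.308% of all genes tested were lower past it. Without 8_3 this held for Kl and Prlr alone of the 6, against 0.241% of the genes tested. Without 8_3 and 5_4 it held for none of the 6, against 0.268%. Leaving out 5_4 was chosen after seeing the data and takes a mouse high in most of these genes from the saline group alone. For those genes it therefore moves the fit towards adropin by construction. No gene among the 14949 had an adjusted p below 0.05 (0%, edgeR with Benjamini-Hochberg adjustment), where 596 genes had an unadjusted p below 0.05. The same adjustment left 0 genes in limma-voom and 2 in DESeq2, neither of them among the 10.

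**Figure D1:**
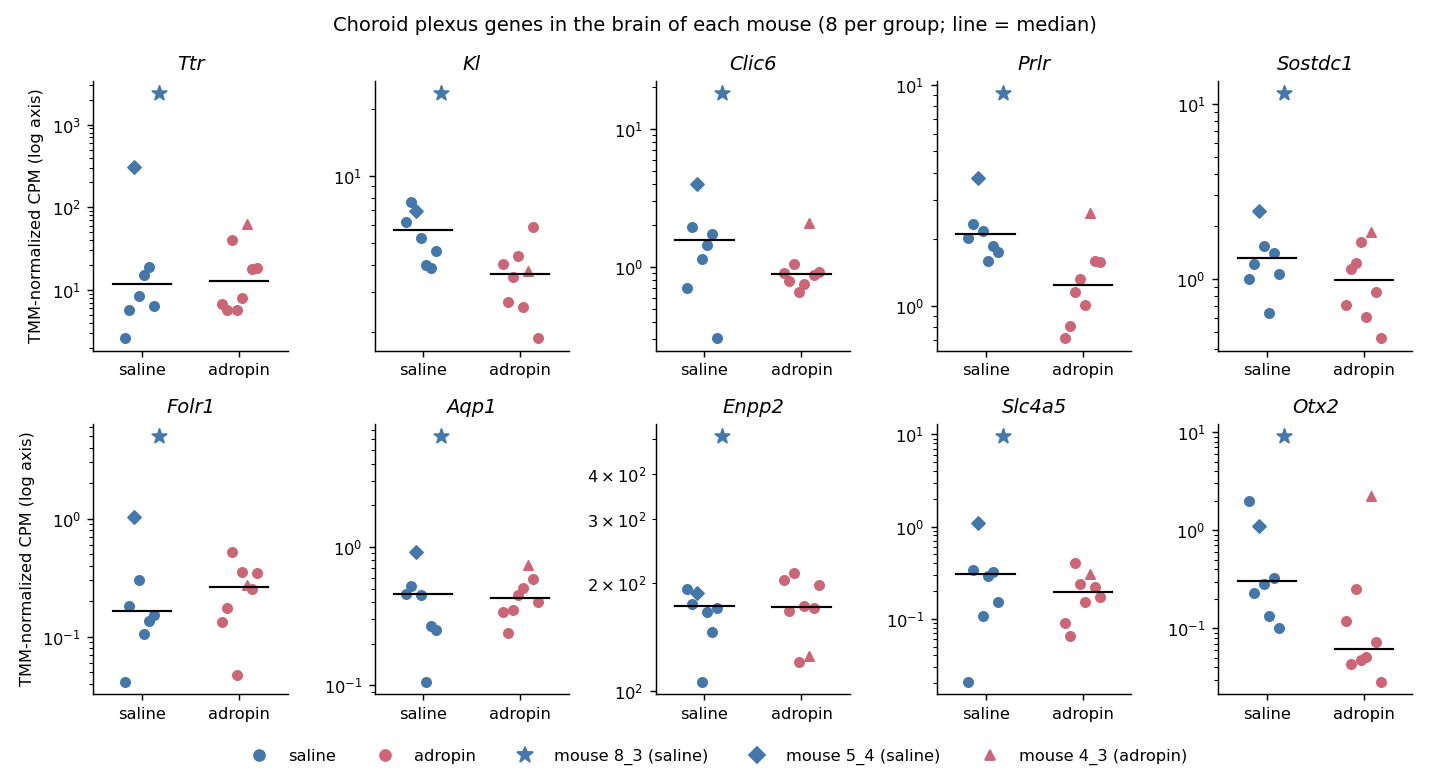
TMM-normalized CPM of each gene (log axis) in every mouse, with 8 saline and 8 adropin-treated mice, 1 point per mouse and a line at each group's median. Saline mouse 8_3 (star) is highest in all 10 panels, and saline mouse 5_4 (diamond) is second in 7 of them.

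Promoter sequence is shown for 3 genes that behaved differently among the mice: Kl, which was past the cut-off without 8_3, Slc4a5, which had the largest r with Ttr though no adjusted p below 0.05, and Otx2, the transcription factor of the list. RefSeq windows from 250 bases before to 50 after a transcription start (GRCm38.p6) were matched for 5 of the 10 genes, Kl, Prlr, Aqp1, Slc4a5 and Otx2, with 10 windows between them. Each window is written 5′ to 3′ on the gene's strand in lower case, and capitals mark TAATCC or its reverse complement GGATTA, the core bound by OTX homeodomains. The Kl window lies at chr5:150952357-150952656 on the plus strand, that of Slc4a5 at chr6:83237125-83237424 on the plus strand, and that of the third Otx2 start at chr14:48665060-48665359 on the minus strand.
Kl: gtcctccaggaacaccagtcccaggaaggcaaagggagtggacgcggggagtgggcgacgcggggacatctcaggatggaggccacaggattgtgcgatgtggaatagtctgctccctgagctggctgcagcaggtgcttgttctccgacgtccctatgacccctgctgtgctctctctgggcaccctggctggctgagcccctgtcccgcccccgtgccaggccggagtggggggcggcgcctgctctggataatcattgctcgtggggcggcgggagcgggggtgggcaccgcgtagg
Slc4a5: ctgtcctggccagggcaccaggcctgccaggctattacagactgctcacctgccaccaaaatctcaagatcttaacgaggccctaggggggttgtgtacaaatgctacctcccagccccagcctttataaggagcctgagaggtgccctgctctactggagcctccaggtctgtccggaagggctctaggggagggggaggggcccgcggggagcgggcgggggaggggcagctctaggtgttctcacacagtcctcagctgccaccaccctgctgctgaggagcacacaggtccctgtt
Otx2: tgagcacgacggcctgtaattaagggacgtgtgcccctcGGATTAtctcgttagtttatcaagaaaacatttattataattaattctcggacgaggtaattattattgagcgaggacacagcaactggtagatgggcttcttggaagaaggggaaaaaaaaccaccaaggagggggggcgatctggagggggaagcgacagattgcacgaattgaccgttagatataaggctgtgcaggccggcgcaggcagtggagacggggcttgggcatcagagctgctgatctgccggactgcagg
On both strands the motif was in 1 of the 10 windows, the third Otx2 start, 211 bases before the start site. Among all 32851 windows of the same length, 7.06% held it. A match is a description of the letters in these windows, and was not tested as a binding site.

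Ttr encodes transthyretin, the carrier of thyroxine that the epithelium secretes into cerebrospinal fluid. The gene (ENSMUSG00000061808) lies on chromosome 18 from 20665280 to 20674321 on the plus strand of GRCm38. Its level in saline mice had a minimum of 2.58 CPM in mouse 2_3, a median of 11.8 and a maximum of 2398 CPM in 8_3, with 311 CPM in 5_4. In adropin-treated mice it ran from 5.70 CPM in mouse 2_1 through a median of 13.0 to 63.1 CPM in mouse 4_3. The groups overlapped over the whole adropin range, 4 of the 8 treated mice had less Ttr than the saline median, and the adropin median was the higher of the pair. The fitted log2 fold change was -4.07 ± 1.32 (SE, n = 8 per group, edgeR adjusted p = 0.874), which was past the cut-off. Without 8_3 it was -1.34 ± 0.91 and without 8_3 and 5_4 it was 1.12 ± 0.58, neither past the cut-off. Leaving out 5_4 as well was chosen after seeing the data, and it takes the 2 highest Ttr levels from the saline group alone, so it moves the fit towards adropin by construction and its sign for Ttr carries no weight. The exact permutation test of log2 CPM gave a difference of -0.86 (p = 0.536) over all mice and 0.078 (p = 0.933) without 8_3.

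Clic6, Sostdc1 and Prlr had lower levels and narrower ranges. Clic6 (ENSMUSG00000022949, chromosome 16, 92485736 to 92541243, plus strand) encodes an intracellular chloride channel protein. Its saline levels had a minimum of 0.304 CPM in mouse 8_1, a median of 1.58 and a maximum of 18.1 in 8_3, and its adropin levels ran from 0.662 through 0.890 to 2.07 CPM in 4_3. It was below the saline median in 7 of the 8 treated mice. The log2 fold change of Clic6 was -1.89 ± 0.64 (SE, edgeR adjusted p = 0.874, exact permutation p = 0.190) with all mice and -0.67 ± 0.38 (exact permutation p = 0.381) without 8_3, the second not past the cut-off.

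Sostdc1 (ENSMUSG00000036169, chromosome 12, 36314139 to 36318452, plus strand) encodes a secreted antagonist of BMP and WNT signalling. Its saline levels ran from 0.637 CPM in mouse 6_2 through a median of 1.31 to 11.5 CPM in 8_3, and its adropin levels from 0.458 CPM in mouse 7_4 through 0.988 to 1.85 CPM in 4_3. Apart from 8_3 and 5_4, the saline levels of Sostdc1 lay within the adropin range. Its log2 fold change was -1.31 ± 0.53 (SE, edgeR adjusted p = 0.874, exact permutation p = 0.149) with all mice and -0.33 ± 0.30 (exact permutation p = 0.298) without 8_3, the second not past the cut-off. In DESeq2, whose default settings can replace outlying counts, it was -0.31 ± 0.29 with all mice and not past it. That lay near the edgeR value without 8_3, and whether counts of 8_3 were replaced was not examined.

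Prlr encodes the prolactin receptor, which in the choroid plexus binds prolactin from blood and is also made by hypothalamic neurons. The gene (ENSMUSG00000005268) lies on chromosome 15 from 10177238 to 10349180 on the plus strand and overlaps Gm21973 on the same strand. Its saline levels had a minimum of 1.59 CPM in mouse 6_2, a median of 2.11 and a maximum of 9.17 CPM in 8_3. Its adropin levels had a minimum of 0.712 CPM in mouse 1_3, a median of 1.24 and a maximum of 2.62 CPM in 4_3. The separation of the groups was the cleanest of the 10 genes, since 7 of the 8 treated mice lay under the lowest saline mouse and 4_3 was the exception. The log2 fold change of Prlr was -1.21 ± 0.37 (SE, edgeR adjusted p = 0.874, exact permutation p = 0.00684) with all mice and -0.73 ± 0.25 (edgeR adjusted p = 0.994, exact permutation p = 0.0138) without 8_3, both past the cut-off. Without 8_3 and 5_4 it was -0.55 ± 0.24, just inside the 1.5-fold limit of 0.58 on the log2 scale.

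Kl encodes klotho, a membrane protein that acts as a coreceptor for the hormone FGF23 and is shed into cerebrospinal fluid, and neurons make it as well. The gene (ENSMUSG00000058488) lies on chromosome 5 from 150952607 to 150993817 on the plus strand. Its saline levels ran from 3.85 CPM in mouse 7_1 through a median of 5.74 to 23.5 CPM in 8_3, and its adropin levels from 1.86 CPM in mouse 7_4 through 3.63 to 5.88 CPM in mouse 5_5. The groups overlapped, with 7 of the 8 treated mice under the saline median and 5 under the lowest saline mouse. The log2 fold change of Kl was -1.11 ± 0.34 (SE, edgeR adjusted p = 0.874, exact permutation p = 0.00808) with all mice and -0.61 ± 0.21 (edgeR adjusted p = 0.994, exact permutation p = 0.0171) without 8_3, both past the cut-off. It was -0.55 ± 0.22 without 8_3 and 5_4, a shift of less than its standard error that put it inside the 1.5-fold limit.

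The Kl and Prlr differences without 8_3 were also recomputed with each of the other 15 mice left out in turn, a choice made after seeing the data. Kl stayed past the cut-off in 9 of the 15 fits, with log2 fold changes from -0.75 to -0.52 (edgeR). Prlr stayed past it in 14 of the 15 fits, with log2 fold changes from -0.93 to -0.55, and 5_4 was the mouse whose removal ended the call. After adjustment over all genes the exact permutation p without 8_3 was 0.997 for each.

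**Figure D2:**
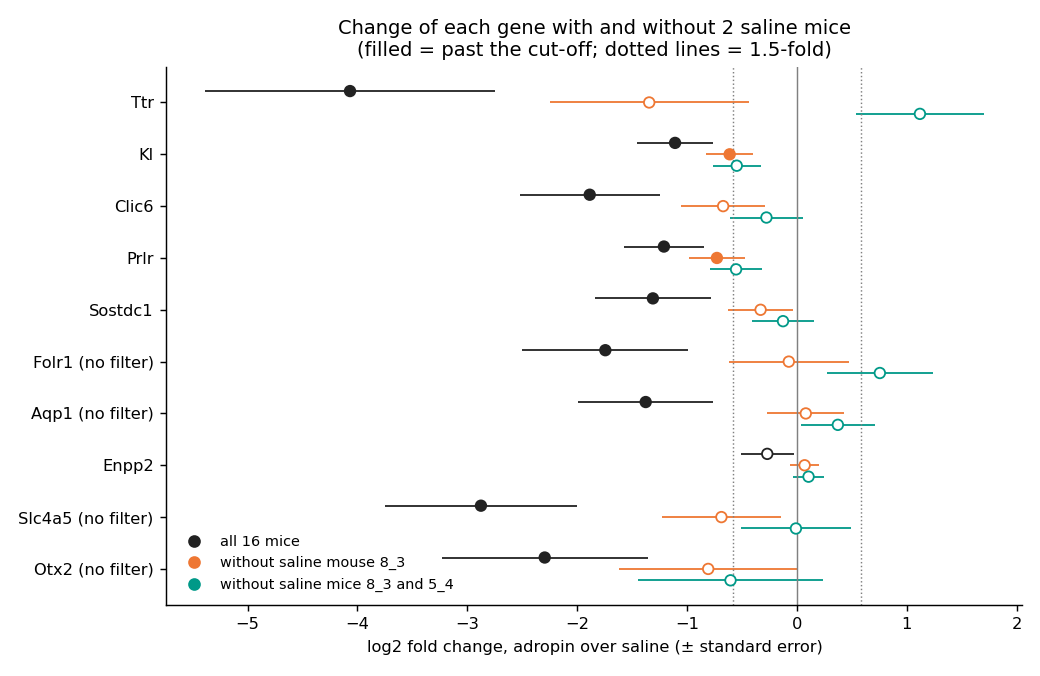
Log2 fold change of each gene, adropin over saline, with its standard error (edgeR), for all 16 mice, without saline mouse 8_3, and without saline mice 8_3 and 5_4, where filled points are past the cut-off and dotted lines mark a 1.5-fold change. Only Kl at -0.61 and Prlr at -0.73 are filled without 8_3, and Ttr, filled at -4.07 with all mice, is open at -1.34 without 8_3.

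Enpp2 encodes autotaxin, the secreted enzyme that makes lysophosphatidic acid, and oligodendrocytes express it as well as the choroid plexus. The gene (ENSMUSG00000022425) lies on chromosome 15 from 54838901 to 54952892 on the minus strand, and Gm26684 overlaps it on the other strand. Its saline levels ran from 106 CPM in mouse 6_1 through a median of 173 to 510 CPM in 8_3, and its adropin levels from 121 CPM in mouse 3_3 through 171 to 213 CPM in mouse 2_4. Without 8_3 its highest level was 2.01-fold its lowest, the smallest such ratio among the 10 genes. Enpp2 was not past the cut-off, with log2 fold changes of -0.27 ± 0.24 (SE, edgeR adjusted p = 0.874, exact permutation p = 0.665) with all mice and 0.070 ± 0.13 (exact permutation p = 0.682) without 8_3.

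The 4 genes under the filter had between 1 and 437 counts in a mouse. Slc4a5 (ENSMUSG00000068323, chromosome 6, 83219828 to 83304945, plus strand) encodes a sodium bicarbonate cotransporter of the ventricular membrane. It was at 9.47 CPM in 8_3 and 1.10 CPM in 5_4, while the other 6 saline mice were at or below 0.340 CPM and the adropin levels ran from 0.0655 to 0.402 CPM. Aqp1 (ENSMUSG00000004655, chromosome 6, 55336432 to 55348555, plus strand) encodes the water channel of the same membrane. It was at 6.31 CPM in 8_3 and 0.926 CPM in 5_4, against adropin levels from 0.240 to 0.745 CPM. Folr1 (ENSMUSG00000001827, chromosome 7, 101858331 to 101870788, minus strand) encodes the folate receptor that carries folate into cerebrospinal fluid, and Anapc15 overlaps it on the other strand. It was at 4.98 CPM in 8_3 and 1.04 CPM in 5_4, against adropin levels from 0.0473 to 0.528 CPM.

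Otx2 encodes a homeodomain transcription factor needed to form and maintain the choroid plexus. The gene (ENSMUSG00000021848) lies on chromosome 14 from 48657677 to 48673819 on the minus strand, with Otx2os1 on the other strand. Otx2 was at 9.01 CPM in 8_3, followed by adropin-treated mouse 4_3 at 2.23 CPM, saline mouse 2_3 at 2.00 CPM and 5_4 at 1.10 CPM. Mouse 2_3 had the lowest Ttr level of the 16. The other 12 mice were at or below 0.323 CPM, and the adropin median was 0.0618 CPM against a saline median of 0.302 CPM.

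In the fit over all 30210 genes with a count, all 4 of these genes were lower in adropin-treated mice past the cut-off, as was every other member except Enpp2, 9 of 10 in all. In that fit 2.6% of all genes were. The log2 fold changes were -2.88 ± 0.87 for Slc4a5, -2.30 ± 0.94 for Otx2, -1.74 ± 0.75 for Folr1 and -1.38 ± 0.61 for Aqp1 (SE), each with an adjusted p of 0.663 (edgeR). Without 8_3 the 4 values were -0.69 ± 0.54, -0.81 ± 0.81, -0.07 ± 0.55 and 0.08 ± 0.35, with none past the cut-off. Kl and Prlr, 2 of the 10 genes, still were, against 2.2% of all genes. The exact permutation p over all mice was 0.320 for Slc4a5, 0.0704 for Otx2, 0.685 for Folr1 and 0.727 for Aqp1. With all mice, Slc4a5, Folr1 and Aqp1 were not past the cut-off in limma-voom or DESeq2, and Otx2 was in both. In limma-voom their log2 fold changes were -0.91 for Slc4a5, -0.37 for Folr1, -0.33 for Aqp1 and -2.26 for Otx2.

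Counts were unambiguous reads per gene and the sources do not state a strand setting, so reads in bases shared with another gene may be missing or misplaced. This touches Clic6 and Prlr, which overlap 2410124H12Rik and Gm21973 on the same strand, Folr1 and Enpp2, which overlap a gene on the other strand, and Otx2, which overlaps Gm49154 on the same strand and Otx2os1 on the other.

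Per kilobase of exon, the median level over the 16 mice was highest for Enpp2 at 29.6 CPM, followed by Ttr at 9.96, Sostdc1 at 0.662, Kl at 0.448, Clic6 at 0.252, Aqp1 at 0.172, Prlr at 0.109, Folr1 at 0.0951, Otx2 at 0.0426 and Slc4a5 at 0.0392 CPM per kilobase. Ttr was above Sostdc1 in all 16 mice. Some neighbours in this order did not differ beyond their spread between mice: Prlr was above Folr1 in 8 of 16 mice and Otx2 above Slc4a5 in 7 of 16. Enpp2 was above Ttr in 13 of 16 mice. In 8_3 the order changed at the top, with Ttr at 2022 and Enpp2 at 88.2 CPM per kilobase.

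How far a gene stood out in 8_3 varied among the 10. The level in 8_3 over the median of the other 15 mice was 285-fold for Ttr, 67.9-fold for Otx2, 43.2-fold for Slc4a5, 27.5-fold for Folr1, 19.8-fold for Clic6, 14.04-fold for Aqp1 and 10.1-fold for Sostdc1. It was 5.85-fold for Kl, 5.76-fold for Prlr and 2.99-fold for Enpp2, which are genes that neurons or oligodendrocytes also express. In 5_4 the level over the median of the other 14 mice, 8_3 left out, was 37.9-fold for Ttr, 8.76-fold for Otx2 and between 1.10-fold (Enpp2) and 5.86-fold (Folr1) for the remaining 8.

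The proportions among the genes were compared between the 2 saline mice as the excess over the median of the other 14 mice. These are single mice with no replicate error, and the ratios are a description. For each 1000 CPM of excess Ttr, Sostdc1 had an excess of 4.35 CPM in 8_3 and 4.41 CPM in 5_4, Otx2 of 3.72 and 3.22 CPM, Slc4a5 of 3.88 and 2.99 CPM, and Kl of 8.17 and 9.85 CPM. For these 4 genes the value in 5_4 was 0.771 to 1.21 times that in 8_3. For Clic6 (7.21 and 10.1 CPM), Folr1 (2.01 and 2.86 CPM) and Aqp1 (2.46 and 1.66 CPM) it was 0.673 to 1.42 times. Prlr had 3.17 CPM in 8_3 and 7.28 CPM in 5_4, a ratio of 2.30. Enpp2 had 142 CPM in 8_3 and 55.9 CPM in 5_4, where its excess of 16.9 CPM was smaller than the SD of its adropin levels, 34.2 CPM.

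Whether the genes varied with Ttr from mouse to mouse was tested on log2 CPM over the 16 mice, with 100000 permutations and adjustment over all genes. No gene of 14948 was correlated with Ttr at an adjusted p below 0.05 (0%), by Pearson's r or Spearman's rho, and so none of the 5 members tested was. With 100000 permutations a gene alone at their smallest p cannot reach that threshold over so many genes, so the absence of calls says little. Among the members, Clic6 had r = 0.88 and rho = 0.69 (adjusted permutation p = 0.0829 and 0.690). Prlr had r = 0.77 and rho = 0.39, Sostdc1 r = 0.77 and rho = 0.41, Enpp2 r = 0.64 and rho = 0.18, and Kl r = 0.59 and rho = -0.04 (adjusted permutation p of r from 0.0829 to 0.124). The mice farthest from the median of Ttr were 8_3 and 5_4, and without them r was 0.51 for Clic6, 0.20 for Prlr, 0.12 for Sostdc1, -0.08 for Enpp2 and -0.33 for Kl. The relation of Sostdc1, Enpp2 and Kl to Ttr over the 16 mice rested on those 2 mice. That of Prlr weakened without them. Its r within the adropin group, which holds neither, was 0.75, and there mouse 4_3 was highest for both Prlr and Ttr.

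Among the genes under the filter, over all genes with a count, Slc4a5 had r = 0.93 and rho = 0.69 and Folr1 r = 0.91 and rho = 0.69, each with an adjusted permutation p of 0.146 for r. Aqp1 had r = 0.78 and Otx2 r = 0.67. Without 8_3 and 5_4, r stayed at 0.70 for Slc4a5 and 0.63 for Folr1, and was 0.12 for Aqp1 and 0.18 for Otx2. Slc4a5, Folr1 and Clic6 had the largest r with Ttr over the remaining 14 mice, and Kl the lowest.

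Within the adropin group of 8 mice r was 0.85 for Clic6, 0.77 for Otx2, 0.76 for Slc4a5, 0.66 for Folr1, 0.55 for Aqp1, 0.28 for Sostdc1, 0.08 for Kl and -0.00070 for Enpp2, given as a description. The 10 other genes with the largest rho with Ttr were Timm8a1, Ppp1r36, Nras, Gm11518, Rpusd1, Gm11185, Fgf9, Sfn, Pcnp and Odf3b, with rho from 0.68 to 0.83 and an adjusted permutation p of 0.690 for each.

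**Figure D3:**
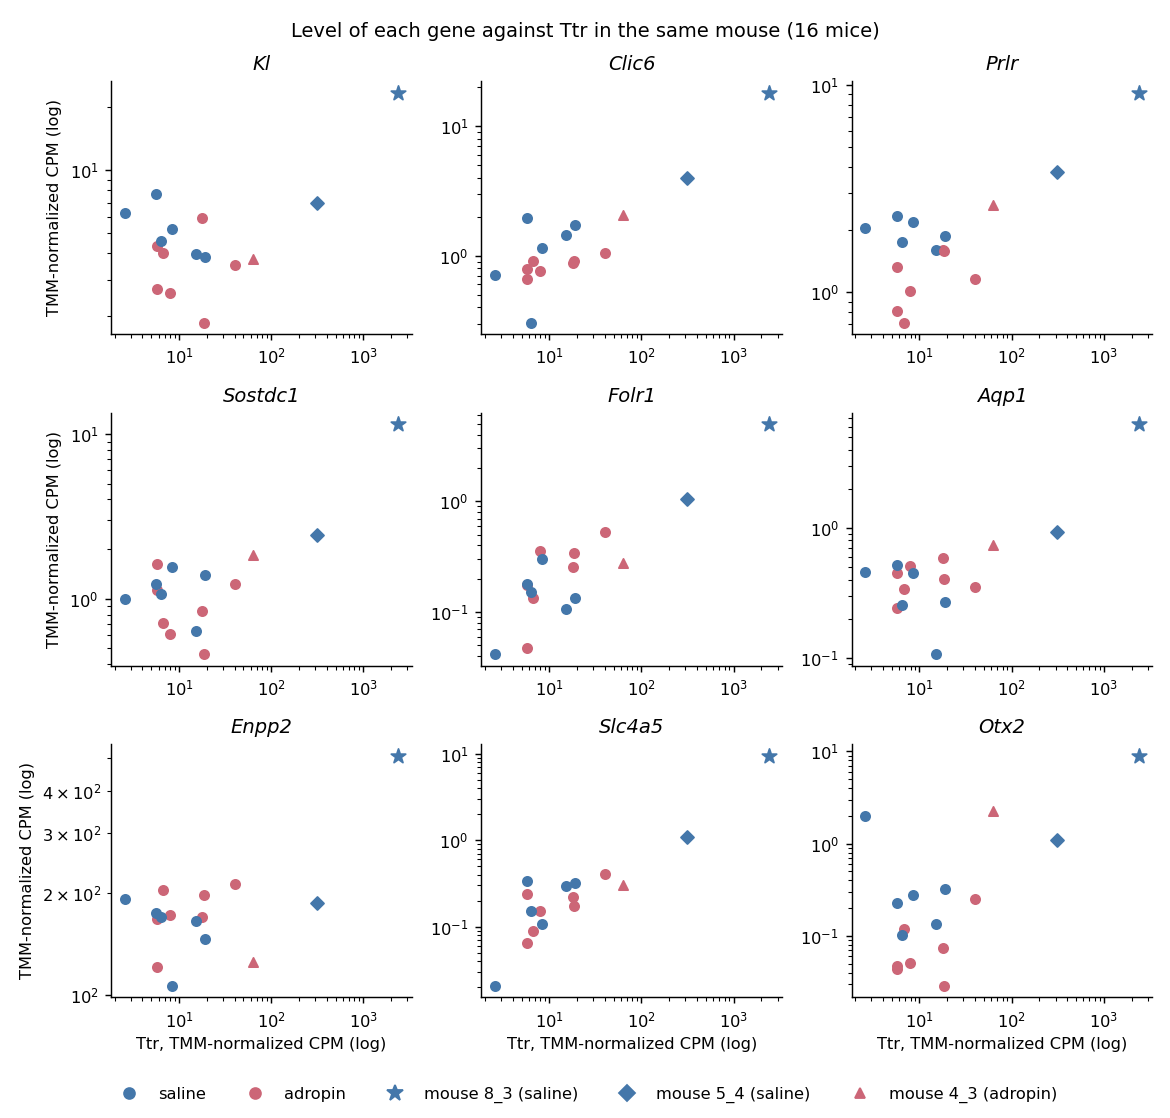
Level of each of 9 genes against Ttr in the same mouse, both in TMM-normalized CPM on log axes, 1 point per mouse for 16 mice. Slc4a5, Folr1 and Clic6 rise with Ttr among the mice without 8_3 (star) and 5_4 (diamond), with r = 0.70, 0.63 and 0.51, and Kl does not, with r = -0.33.

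A second list of 29 choroid plexus genes, with none of the 10, was read in the same way. Of these, 25 were highest in 8_3 and 12 were highest in 5_4 among the other 15 mice. The level in 8_3 over the median of the other mice had a median of 3.10-fold over the list, where the 10 genes had 16.9-fold. In 5_4 it had a median of 1.41-fold over the list, where the 10 genes had 3.37-fold. Among the 17 that passed the filter, only Ecrg4, which encodes a secreted peptide precursor of the epithelium, was past the cut-off, where 0.308% of all genes tested were lower past it, with a log2 fold change of -1.25 ± 0.54 (SE, edgeR adjusted p = 0.874) with all mice and -0.14 ± 0.26 (edgeR adjusted p = 0.994) without 8_3. Ecrg4 was at 22.5 CPM in 8_3, 5.27 CPM in 5_4 and a median of 1.91 CPM in the other 15 mice. The median log2 fold change was -0.19 over these 17 genes, -1.26 over the 6 members tested and -0.00191 over all genes tested. Without 8_3 the medians were 0.043, -0.64 and 0.00089. Igfbp2, an insulin-like growth factor binding protein and the most abundant of the list, had a log2 fold change of -0.24 ± 0.23 (edgeR adjusted p = 0.877) with all mice and 0.052 ± 0.15 without 8_3.

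With no filter, 10 of the 29 genes were lower past the cut-off, where 2.6% of all genes were, and none of them was without 8_3, where 2.2% were. The smallest p belonged to Kcne2, a potassium channel subunit of the epithelium, at 8.67 CPM in 8_3 and at most 0.608 CPM in the other mice. Tmem72, Calml4, Steap1 and Mfrp were also past the cut-off, with 4.01, 3.92, 2.08 and 7.97 CPM in 8_3 against maxima of 0.405, 1.39, 0.463 and 1.04 CPM in the other 15. Krt18, Lmx1a and Otx2os1 were past it at 5.57, 0.888 and 0.563 CPM in 8_3 and at most 1.82, 0.0860 and 0.115 CPM elsewhere, as were Rdh5 and Ecrg4. Kcnj13, at 4.55 CPM in 8_3 and at most 0.855 CPM elsewhere, was not. In 5_4 the list was less uniform, with Calml4, Krt18, Mfrp and Kcne2 highest of the other 15 mice there, but Kcnj13 at 0.695 CPM, Cldn2 at 0.174 CPM and Lmx1a at 0 were not.

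Markers of other cells and brain parts moved with 8_3 as well. All 6 cerebellar genes were highest in 8_3, where their sum was 361 CPM against sums from 5.59 to 12.6 CPM in the other saline mice and from 6.36 to 8.67 CPM in the adropin group. Car8, the most abundant of them and the only 1 that passed the filter, was at 91.7 CPM in 8_3 and at most 7.24 CPM elsewhere, with a log2 fold change of -1.40 ± 0.61 (SE, edgeR adjusted p = 0.874), past the cut-off with all mice, and of 0.20 ± 0.11 without 8_3. The other 5, Cbln3, Fat2, Gabra6, Pcp2 and Ppp1r17, were at 125, 59.5, 34.9, 28.2 and 21.5 CPM in 8_3 and at most 2.77, 1.35, 0.242, 0.781 and 0.485 CPM elsewhere. With no filter all 6 were past the cut-off with all mice, where 2.6% of all genes were. Without 8_3 Gabra6 alone of them was (-1.66 ± 0.80, edgeR adjusted p = 0.808), where 2.2% of all genes were. In 5_4 the cerebellar sum was 5.59 CPM, the lowest of the 16, so the choroid plexus genes were high there without them.

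Ependymal genes, which mark the ciliated cells lining the ventricles, had a sum of 39.2 CPM in 5_4 and 34.7 CPM in 8_3, against 11.7 to 21.3 CPM in the adropin group. Of the 10 ependymal genes, 6 were highest in 5_4 and 4 in 8_3. None of the 7 tested was past the cut-off, where 0.308% of all genes tested were lower past it. Foxj1, a ciliogenesis factor and the most abundant, had a log2 fold change of -0.40 ± 0.21 (edgeR adjusted p = 0.874) with all mice and -0.20 ± 0.17 without 8_3. With no filter Dynlrb2, a dynein light chain gene, was the 1 of the 10 past the cut-off. It was at -0.83 ± 0.33 (edgeR adjusted p = 0.663) with all mice, where 2.6% of all genes were lower past it. Without 8_3 it was at -0.71 ± 0.34 (edgeR adjusted p = 0.808), where 2.2% were. Its level was 1.48 CPM in 5_4 and 1.15 CPM in 8_3 against a median of 0.481 CPM over the 15 mice without 8_3. Oligodendrocyte genes, led by Mbp, summed to 8150 CPM in 8_3 and to between 2914 and 8149 CPM in the adropin group. Meningeal and stromal genes, led by Ptgds, summed to 2610 CPM in 8_3 and to between 984 and 2507 CPM in the adropin group. Erythrocyte genes, led by Hba-a1, summed to 525 CPM in 8_3 and to between 96.9 and 686 CPM in the adropin group.

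None of the tested genes of the oligodendrocyte (9), meningeal (13), erythrocyte (5), endothelial (6, led by Slc2a1), pineal (2, led by Asmt), neuronal (5, led by Snap25) and astrocyte (5, led by Slc1a3) lists was past the cut-off. Of all genes tested 0.308% were lower past it, a share at which lists this short would mostly hold none. Asmt, the last enzyme of melatonin synthesis, was also highest in these mice, with 16.8 CPM in 8_3 and 16.4 CPM in 5_4 against a median of 10.1 CPM over the 15 mice without 8_3. The other pineal genes, Aanat, Tph1 and Crx, were highest in neither mouse. Aanat was at 1.11 CPM in 8_3 and 1.13 CPM in 5_4, against up to 1.46 CPM elsewhere. Over the 4 genes the median fold was 1.10 in 8_3 and 1.14 in 5_4. The pineal sums, mostly Asmt, were 18.0 CPM in 8_3 and 17.7 CPM in 5_4, against at most 14.6 CPM in the adropin group. The part of these cell types and of the cerebellum in the differences of Kl and Prlr was not tested.

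**Figure D4:**
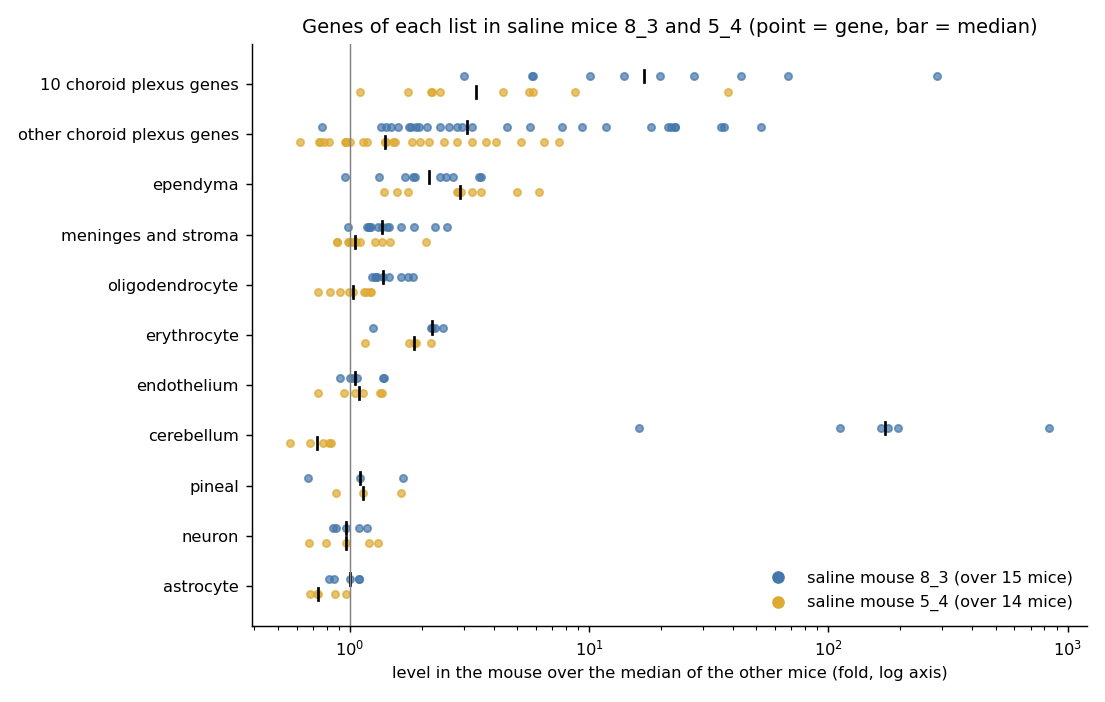
Level of each gene of 11 lists in saline mouse 8_3, over the median of the other 15 mice, and in saline mouse 5_4, over the median of the other 14 mice without 8_3, on a log axis, with 1 point per gene (genes at 0 in the mouse are not drawn) and a bar at the list's median. In 8_3 the 10 choroid plexus genes have a median of 16.9-fold and the cerebellar genes of 172-fold, while in 5_4 the medians are 3.37-fold for the 10 genes, 2.88-fold for the ependymal, 1.86-fold for the erythrocyte and 1.41-fold for the other choroid plexus genes.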

How the data were processed

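The authors aligned paired reads of 150 bases from poly-A selected RNA with STAR to the Ensembl primary assembly (GRCm38) and counted uniquely aligned, unambiguous reads per gene with featureCounts. The deposited counts are not normalized and were used here as 16 libraries, 1 per mouse. Of 40757 entries, 276 that repeated a gene were dropped, and 355 ribosomal RNA genes were left out of the tests. A second table of CPM was not used.

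TMM factors over all genes, the filter and the quasi-likelihood test were computed in edgeR 4.0.16 (R 4.3.3), with Benjamini-Hochberg adjustment over all genes tested, and a standard error is the log2 fold change over the root of its F statistic. Correlations and exact permutation tests used log2 TMM-normalized CPM with a prior count of 2 and were two-sided. The fits were tested on simulated data. Gene positions and exon lengths are from GENCODE M21 on GRCm38. Alternatives were limma-voom (limma 3.58.1), DESeq2 1.42.0, other scaling and filters, replicate blocks, and leaving out each mouse.

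The genes and lists were chosen with earlier results of these data known. All 10 genes are named, with genes of other lists past the cut-off, in the fit with no filter for those under it, and the most abundant of each list, and the 10 genes with the largest rho with Ttr. Some genes with few counts were named after their values were seen. At these depths 1 CPM is about 35 reads or more, so counting error matters most for the 4 genes under the filter. It also enters the lowest levels of Clic6, Sostdc1 and Prlr, whose minimum counts were 12, 16 and 37. Each label was taken as a separate mouse, and which mice shared a cage is not given in the sources used here.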

Additional observations from a re-analysis of the deposited data

Results flagged for a closer look

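Each gene's levels were examined in each group for a mouse whose distance to its nearest neighbour took an unusually large part of the group's range (Dixon's criterion, 0.526 for 8 mice). Of the 20 groups of 1 gene and 1 treatment, 13 held such a mouse. In the saline group mouse 8_3 stood apart for all 10 genes, with 2398 CPM of Ttr, 23.5 of Kl, 18.1 of Clic6, 9.17 of Prlr, 11.5 of Sostdc1, 4.98 of Folr1, 6.31 of Aqp1, 510 of Enpp2, 9.47 of Slc4a5 and 9.01 of Otx2. The genes of 1 mouse are not independent of each other, and 8_3 was singled out before from its levels of these genes, so its 10 values are a description and are not set against chance. In the adropin group the other 3 came from 1 mouse too: 4_3 stood apart with 2.07 CPM of Clic6 against 1.06 in the next mouse, 2.62 CPM of Prlr against 1.59, and 2.23 CPM of Otx2 against 0.251. The criterion's chance rate of about 1 in 20 holds for independent normal values, so these 3 are likewise a description.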

How the results depend on the processing

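Of the 6 members tested, 5 were past the cut-off with all mice, against 2 in limma-voom (Kl and Prlr), 4 in DESeq2 (Sostdc1 lost), 0 with the first label number as a replicate block and 9 of 10 with no filter. Over all genes, 46 of 14949 were lower past the cut-off, against 30 in limma-voom, 47 in DESeq2, 60 with that block and 784 of 30210 with no filter. Leaving out 1 mouse gave 2 to 5, and 2 only without 8_3. In the second list the count of 1 became 0 in limma-voom, 0 with the second label number as a replicate block, 10 with no filter and 0 with no filter and without 8_3, and leaving out 1 mouse gave 0 to 3. Without 8_3, the 2 members were past the cut-off in limma-voom, DESeq2 and the second replicate block, and leaving out a further mouse gave 0 to 3. Of 252 log2 fold changes of single members under alternatives, 204 kept their direction and side of the cut-off, 39 lost the call and 9 changed sign. Those 9 were Ttr (0.078), Folr1 (0.22), Aqp1 (0.21) and Enpp2 (0.065) by exact permutation without 8_3, Aqp1 and Enpp2 by edgeR without 8_3, Folr1 (0.63) and Enpp2 (0.081) with the first replicate block, and Aqp1 (0.075) in DESeq2. Over the fits that leave out 1 mouse, Aqp1 ran from -1.55 to 0.080 and Enpp2 from -0.37 to 0.070, each highest without 8_3. Without 8_3 Ttr was also at 0.13 in limma-voom and 1.07 in DESeq2. With the first replicate block and no filter, Otx2 was at -3.52 with an adjusted p of 3.73e-12 (edgeR), the only member value past adjustment, in a fit where 134 of 30210 genes were. Only 3 first numbers hold mice of both groups, and the first replicate block estimates the treatment within those alone. Mouse 8_3, whose first number holds saline mice only, therefore adds nothing to that estimate. Whether DESeq2 replaced counts of 8_3 was not examined, and the cause of the other changes was not tested. What the label numbers stand for is not given. Deviations from the group means correlated from -0.27 to 0.22 over 5 pairs of mice, 1 from each group, that share a first number. Over 17 pairs that share a second number they ran from -0.56 to 0.30. So few pairs cannot decide whether a number stands for a shared cage or batch. The median log2 fold change of the members kept its sign throughout.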
